A study of Homo sapiens with 12 samples.

Results

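The genes described are the 78 nuclear genes for proteins of the mitochondrial ribosome that carry an MRPL or MRPS symbol, 49 of the large subunit and 29 of the small subunit by symbol. They were taken by symbol from the 26115 gene symbols present in the tables of both cell lines, with at least 1 FPKM on average in a line. FPKM counts sequenced fragments relative to the length of a transcript and the size of the library. All 78 matching symbols passed, and the lowest group mean of any member was 3.47 FPKM, for MRPS33 in hypoxic KYSE150. The series set hypoxia against normoxia in the human cell lines KYSE150 and KYSE410, both derived from esophageal squamous carcinoma and given as wild type in the labels, to describe gene expression in low oxygen. Each line had 3 hypoxic libraries (0.5% oxygen, 48 h) and 3 normoxic libraries (21% oxygen), so the 12 libraries form 4 groups: hypoxic KYSE150, normoxic KYSE150, hypoxic KYSE410 and normoxic KYSE410. The labels put normoxia at time 0 while the design text has both oxygen levels incubated alike, so the time in normoxia is unclear. Whether replicates were separate cultures is not said in the labels, and p-values then reflect only how much these libraries scatter, which may be technical. Of the squamous markers, KYSE150 had KRT5, KRT6A, KRT14, TP63 and DSG3 at or near 0 but expressed KRT17, SFN and DSP, while KYSE410 expressed all of these. Leukocyte and endothelial markers were near 0 in both lines. Of the fibroblast markers COL1A1 averaged 4.64 FPKM in hypoxia and 5.89 FPKM in normoxia in KYSE150, and no other exceeded 1.62 FPKM in either line. In bulk RNA fewer cells with a transcript and less of it per cell cannot be told apart.

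Mitochondrial ribosomes sit at the inner mitochondrial membrane and translate the few mRNAs encoded by mitochondrial DNA, all of which encode subunits of the respiratory chain or the ATP synthase. Their RNAs come from the mitochondrial genome, whereas every protein is encoded in the nucleus, made on cytosolic ribosomes and imported. Compared with bacterial ribosomes they hold more protein and less RNA, and a large group of their proteins has no bacterial counterpart. Promoters of such genes are known for sites of ETS-family factors such as GABP and for sites of YY1 at the translation start.

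RefSeq promoters (GRCh38.p14, 250 bases before to 50 after the start site) were matched for 69 of the 78 genes. The ETS letters CCGGAAG, searched on both strands, were in 29 of the 69 (42.0%), against 20.0% of 10086 promoters of genes tested in either line and 10.7% of all 27305 promoters in the table. They were also in 35.5% of 62 promoters of cytosolic ribosomal protein genes. The following 70-base stretches end just before the start site of 4 genes that were lower in hypoxia in both lines as deposited, with the ETS letters in capitals.
MRPS10, chr6:42217862-42217931, minus strand: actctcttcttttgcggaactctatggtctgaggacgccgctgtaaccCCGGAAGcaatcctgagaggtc
MRPL58, chr17:75012600-75012669, plus strand: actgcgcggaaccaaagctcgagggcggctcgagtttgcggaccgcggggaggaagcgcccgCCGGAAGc
MRPS18A, chr6:43687792-43687861, minus strand: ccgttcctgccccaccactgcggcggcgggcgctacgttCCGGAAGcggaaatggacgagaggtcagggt
MRPL20, chr1:1407294-1407363, minus strand: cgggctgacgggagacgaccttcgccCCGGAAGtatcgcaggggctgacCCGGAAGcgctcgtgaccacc

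The YY1 core letters AGATGGC, searched on both strands, were in 21 of the 69 promoters (30.4%), against 7.68% of promoters of tested genes and 5.61% of all promoters, and 11.3% of those of cytosolic ribosomal protein genes. The 27-base stretches below surround the match in 6 genes, with the YY1 letters in capitals, and are shown because the same letters stand in genes that moved in different directions.
MRPL46, chr15:88467363-88467389, minus strand: ggagaacgaaAGATGGCggcgcccgta
MRPS10, chr6:42217835-42217861, minus strand: gggaccggcaAGATGGCggcgcggaca
MRPS18A, chr6:43687765-43687791, minus strand: aggtttttgaAGATGGCggccctcaag
MRPS18B, chr6:30617854-30617880, plus strand: gcgtacgtcaAGATGGCggcgtctgta
MRPS24, chr7:43869481-43869507, minus strand: gcttggcccaAGATGGCggcctccgtg
MRPS30, chr5:44808951-44808977, plus strand: tcgcgggcaaAGATGGCggcggccagg
In MRPS10 and MRPS18A the match began 10 bases downstream of the start site, and in MRPS18B 24 bases downstream. The NRF1 core letters GCATGCG were in 10.1% of member promoters and 6.6% of promoters of tested genes. The hypoxia response core ACGTG was in 27.5% of member promoters and 27.1% of promoters of tested genes, and the E-box CACGTG, which contains that core, was in 8.7% and 10.4% of the same sets. The YY1 and NRF1 letters were shortened after longer forms had been searched and their counts seen. With the longer YY1 form the share was again higher in members, whereas with the longer NRF1 form it was lower in members than in tested genes, so the order for NRF1 depends on the letters chosen. A match describes letters in a window, not a bound site.

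The libraries held between 22787 and 24667 genes above 0, and their depth is unknown, because FPKM carries no counts. KYSE150 normoxia replicate 2 stood apart for these genes. It was the highest of its group for 71 of the 78 members, and its members had a median log2 excess of 0.353 over the other normoxic KYSE150 libraries. Counts in KYSE150 that moved by over 1.5 times without it are given both ways beside the result. In KYSE410 the labels carry sample-sheet numbers 56 to 58 in hypoxia and 38 to 40 in normoxia, so oxygen cannot be told apart from a library set inferred from these numbers. The KYSE150 libraries carry numbers 50 to 55.

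In KYSE150, hypoxia lowered more mitochondrial ribosomal protein genes than it raised. Of the 78 members, 42 fell, 6 rose and 30 did not pass the test (limma, Benjamini-Hochberg adjusted p under 0.05 over 12692 genes). Of the members 53.8% fell and 7.7% rose, against 38.8% and 23.5% of all tested genes. The median log2 change was -0.35 over the members and -0.13 over all genes, and 56 of 78 members lay below that all-gene median. That number was 48 with a trend of transcript length and GC content removed, 60 with no filter on low values and 46 without normoxia replicate 2. It was again 56 under each of the 3 other scalings tried. A scaling that multiplies a whole library by a constant shifts members and median together and can hardly move it. The hypoxic libraries lay below all normoxic libraries for 51 members and above them for 6, where 42.6% and 27.0% of all tested genes did so. Without normoxia replicate 2, 46 members fell and 16 rose, and all 42 and all 6 kept their calls. The calls over all genes also grew without it, to 5756 lower and 3661 higher of 12678 tested. With a scaling that centres the median gene (median of ratios), 30 fell and 11 rose, while over all genes 4004 were higher and 3692 lower, against 2981 and 4925 in the values as deposited. A fall of at least 1 on the log2 scale was called for 11 members (7.72% of all genes) and a rise of that size for none (4.49% of all genes); without normoxia replicate 2 only 5 members fell that far.

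**Figure D1:**
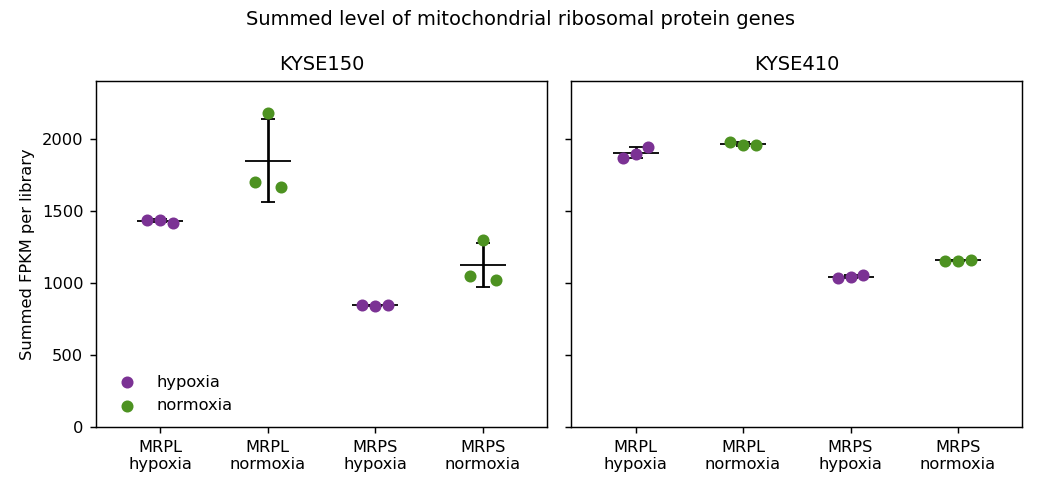
Summed FPKM of the 49 MRPL and the 29 MRPS genes in each library (points, hypoxia left of normoxia), with the group mean and SD (lines, n = 3), for KYSE150 and KYSE410. In KYSE150 the hypoxic MRPL sums lie between 1419 and 1439, below all normoxic ones; in KYSE410 the MRPL sums differ little and the MRPS sums are apart.

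As deposited, the summed level of the members was lower in hypoxia in both lines. In KYSE150 the large-subunit genes together reached 1437, 1439 and 1419 FPKM in hypoxia, against 1703, 2179 and 1662 FPKM in normoxia. The small-subunit genes reached 845.5, 840.8 and 851.5 FPKM in hypoxia, against 1048, 1301 and 1024 FPKM in normoxia. Every hypoxic sum was below every normoxic sum, also without replicate 2. The members took 0.596% to 0.603% of all FPKM in hypoxia and 0.734% to 0.841% in normoxia. In KYSE410 the large-subunit sums were 1870, 1892 and 1944 FPKM in hypoxia, against 1978, 1954 and 1955 FPKM in normoxia. The small-subunit sums were 1035, 1040 and 1055 FPKM in hypoxia, against 1156, 1156 and 1160 FPKM in normoxia. Both sums were apart in KYSE410 as deposited, by a small margin for the large subunit. Sums under other scalings were not made. In KYSE410 the median log2 changes of MRPL and MRPS genes were 0.02 and -0.19 as deposited. With median-of-ratios scaling they were 0.23 and 0.02, and with each library rescaled to a common sum -0.22 and -0.43. The order of the KYSE410 sums may therefore depend on the scaling. The share of all FPKM was 0.696% to 0.706% in hypoxia and 0.871% to 0.892% in normoxia. The total FPKM of the hypoxic KYSE410 libraries, 415926 to 425094, was itself above that of the normoxic ones, 351501 to 356994. With 3 libraries against 3, an exact two-sided permutation test of a single sum cannot go below 0.1, so no test is given.

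The deepest fall in KYSE150 was that of MRPS10, a small-subunit protein conserved from bacteria (chromosome 6, 42206801 to 42217865, minus strand, GENCODE 29 on hg38). It had 16.6, 16.0 and 18.3 FPKM in hypoxia, against 53.3, 58.02 and 53.8 FPKM in normoxia. The groups were far apart, and hypoxia left 30.9% of the normoxic mean. Its log2(FPKM + 1) change was -1.64 ± 0.08 (SE, n = 3 each; limma adjusted p = 2.818e-06). MRPL46, a mitochondria-specific protein of the central protuberance, the crest of the large subunit (chromosome 15, 88459476 to 88467419, minus strand), had 10.1, 9.19 and 11.1 FPKM in hypoxia, against 26.3, 33.6 and 26.8 FPKM in normoxia. All hypoxic libraries were far below all normoxic ones, and the log2 change was -1.42 ± 0.11 (limma adjusted p = 3.008e-05).

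A further 4 members completed the largest falls in KYSE150. MRPS17 and MRPS16, conserved small-subunit proteins, changed by -1.21 ± 0.15 and -1.10 ± 0.09 on the log2 scale. MRPL20, a conserved large-subunit protein, had 34.1, 31.8 and 33.2 FPKM in hypoxia, against 71.1, 98.7 and 65.02 FPKM in normoxia, a change of -1.20 ± 0.15. MRPL12, the stalk protein that recruits translation factors and is also known to bind the mitochondrial RNA polymerase, had 48.9, 46.6 and 47.9 FPKM in hypoxia, against 95.3, 136 and 91.3 FPKM in normoxia, a change of -1.13 ± 0.14. In each of these 4 genes the groups were apart, and normoxia replicate 2 was the highest library (limma adjusted p at most 0.0003008). Without that library the changes were -1.04 for MRPS17, -1.01 for MRPS16, -1.02 for MRPL20 and -0.95 for MRPL12, all still called.

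The members that rose in KYSE150 were 4 of the 49 MRPL genes and 2 of the 29 MRPS genes. MRPL9, a conserved large-subunit protein (chromosome 1, 151759643 to 151763564, minus strand), had 49.5, 46.5 and 45.8 FPKM in hypoxia, against 24.7, 31.3 and 24.7 FPKM in normoxia. All hypoxic libraries were higher, with a log2 change of 0.80 ± 0.10 (limma adjusted p = 0.0003249). MRPL36, a small conserved large-subunit protein, averaged 56.1 ± 2.26 FPKM in hypoxia and 40.4 ± 7.67 FPKM in normoxia (SD, n = 3 each), a change of 0.48 ± 0.13 whose adjusted p by limma was 0.0513 with no filter on low values. MRPL45, which sits near the exit of the nascent chain and is known to contact the inner membrane, changed by 0.45 ± 0.08. MRPS30, MRPL2 and MRPS27 changed by 0.43 ± 0.07, 0.38 ± 0.10 and 0.33 ± 0.06 (limma adjusted p at most 0.0121 for all 6). MRPS30 carries a small-subunit symbol but is a large-subunit protein in ribosome structures, MRPL2 is a conserved core protein of the large subunit, and MRPS27 is a pentatricopeptide repeat protein of the small subunit.

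In KYSE410 the members split. Hypoxia lowered 37, raised 24 and left 17 without a call (limma, adjusted over 12054 genes), where 51.9% of all tested genes fell and 31.2% rose. The members' shares were 47.4% and 30.8%, near those of all genes. Their median log2 change was -0.07 against -0.21 over all genes, and 45 of 78 lay above that all-gene median. Groups were apart downward for 37 members and upward for 24, where 52.7% and 31.9% of all tested genes were apart. These counts moved with the scaling. With median-of-ratios scaling 28 fell and 38 rose, with each library rescaled to a common sum 52 fell and 12 rose, and with a trend of transcript length and GC content removed 48 fell and 15 rose. Over all genes, calls were 37.6% higher as deposited, 48.2% with median-of-ratios scaling, 49.4% with quantile normalization and 26.8% with a common sum. The median over all genes was -0.03 with median-of-ratios scaling, -0.01 with quantile normalization and -0.42 with a common sum. A fall of at least 1 on the log2 scale was called for 7 members (15.3% of all genes) and a rise of that size for MRPL9 alone (6.29% of all genes). Relative to the all-gene median of each scaling, 47, 38 and 43 members lay above it with median-of-ratios scaling, quantile normalization and a common sum, against 45 as deposited. With the length and GC trend removed, and likewise with no filter on low values, 36 lay above it and 42 below.

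Transcript length moved with the KYSE410 change over all genes but hardly within the members. The longest transcripts of the members had a median of 1722 bases, against 3525 over genes tested in both lines. Spearman's rho of change with length was -0.03 over the 78 members in KYSE410 and -0.266 over all tested genes. In KYSE150 it was 0.05 over the members and 0.065 over all genes. These correlations are across genes, which share libraries and are not replicates, and the part of length in the changes was not tested beyond the trend removed above.

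The largest fall in KYSE410 was that of MRPL46, with 7.65, 7.96 and 6.66 FPKM in hypoxia, against 26.7, 27.6 and 24.9 FPKM in normoxia. Hypoxia left 28.1% of the normoxic mean, the groups were far apart, and the log2 change was -1.70 ± 0.07 (limma adjusted p = 7.829e-08). MRPS10 had 22.7, 24.6 and 24.8 FPKM in hypoxia, against 70.3, 69.8 and 69.7 FPKM in normoxia, a change of -1.51 ± 0.04. MRPS18A, described with its paralogs further on, changed by -1.50 ± 0.04. MRPL58, a large-subunit protein that is also known as the peptidyl-tRNA hydrolase ICT1 and rescues stalled ribosomes, had 19.2, 19.3 and 19.8 FPKM in hypoxia, against 44.2, 45.5 and 43.9 FPKM in normoxia. All its hypoxic libraries stood below all normoxic ones, and the log2 change was -1.16 ± 0.03. MRPS17 and MRPS18C, both of the small subunit, changed by -1.12 ± 0.05 and -1.11 ± 0.06 (limma adjusted p at most 6.008e-07 for these 6 genes).

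MRPL9 had the largest rise in KYSE410, as in KYSE150. It had 43.5, 41.6 and 45.4 FPKM in hypoxia, against 17.8, 19.5 and 19.2 FPKM in normoxia, so the hypoxic mean was 231.5% of the normoxic mean. The log2 change was 1.17 ± 0.05 (limma adjusted p = 1.045e-07). MRPL48, a mitochondria-specific protein of the central protuberance, had 26.7, 26.7 and 27.7 FPKM in hypoxia, against 16.1, 14.8 and 15.4 FPKM in normoxia, and changed by 0.77 ± 0.04. MRPL45 changed by 0.70 ± 0.05, and MRPL34 and MRPL2, conserved large-subunit proteins, by 0.65 ± 0.08 and 0.61 ± 0.07. MRPS24, a conserved small-subunit protein, changed by 0.55 ± 0.03 (limma adjusted p at most 6.382e-05 for these 6 genes). The groups were apart in each.

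**Figure D2:**
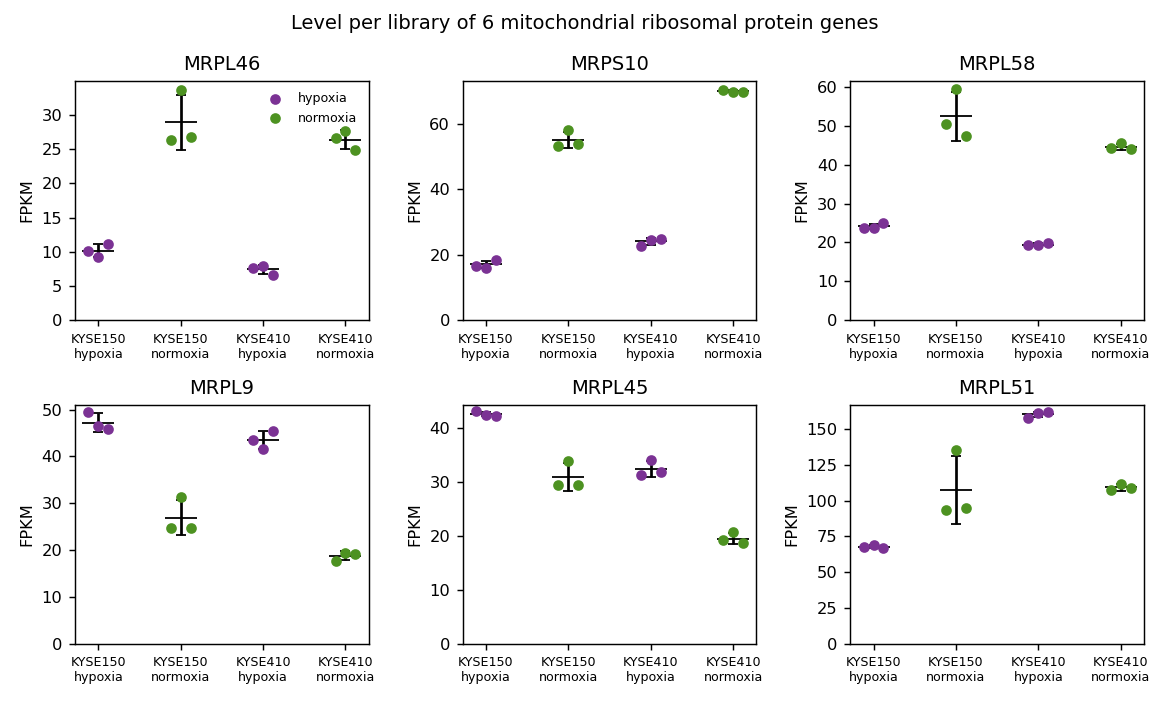
FPKM per library (points) with group mean and SD (lines, n = 3) for 6 genes, hypoxia left of normoxia within each line. MRPL46, MRPS10 and MRPL58 are lower in hypoxia in both lines, MRPL9 and MRPL45 are higher in both, and MRPL51 is lower in hypoxic KYSE150 and higher in hypoxic KYSE410.

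Both lines together gave a set of genes that fell in common. In both lines 30 members fell, 18 of the large and 12 of the small subunit, where 29.4% of the 10951 genes tested in both lines did so. They were MRPL12, MRPL14, MRPL15, MRPL16, MRPL19, MRPL20, MRPL28, MRPL32, MRPL33, MRPL35, MRPL41, MRPL42, MRPL46, MRPL47, MRPL49, MRPL50, MRPL55, MRPL58, MRPS2, MRPS10, MRPS12, MRPS16, MRPS17, MRPS18A, MRPS18B, MRPS18C, MRPS23, MRPS26, MRPS28 and MRPS31. Of these, 21 kept the call in both lines under every alternative tried, leaving out any library included. The 9 that did not were MRPL16, MRPL19, MRPL20, MRPL32, MRPL42, MRPS2, MRPS18B, MRPS26 and MRPS28, which all lost it with median-of-ratios scaling. MRPL2, MRPL9, MRPL45 and MRPS30 rose in both, where 13.8% of genes did so, and all but MRPS30 kept that call throughout. MRPS30 lost it with a common sum. Without KYSE150 normoxia replicate 2, 30 members fell and 11 rose in both lines.

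As deposited, 4 members were called in opposite directions. MRPL51, MRPS5 and MRPS15 fell in KYSE150 and rose in KYSE410, where 4.94% of genes did so, and MRPS27 rose in KYSE150 and fell in KYSE410, where 5.37% did. MRPL51 and MRPS27 were opposite under every alternative tried, whereas MRPS5 and MRPS15 were not with median-of-ratios scaling or a common sum. MRPS15 was also not with the length and GC trend removed, and each of that pair dropped out without 1 hypoxic KYSE150 library. With quantile normalization 8 members were opposite, and without KYSE150 normoxia replicate 2 there were 9, the added ones being MRPL10, MRPL17, MRPS6, MRPS9 and MRPS14. The 7 members called in neither line were MRPL1, MRPL22, MRPL24, MRPL39, MRPL57, MRPS21 and MRPS35. MRPL57 had the largest standard error on the log2 scale in each line, with 13.7, 11.8 and 5.36 FPKM in hypoxia, against 10.5, 13.3 and 10.3 FPKM in normoxia in KYSE150 (named after its values were seen). A further 17 members rose in KYSE410 alone by the calls, 6 fell in KYSE410 alone, 9 fell in KYSE150 alone and MRPL36 rose in KYSE150 alone. Without KYSE150 normoxia replicate 2, 8 rose and 3 fell in KYSE410 alone and 11 fell in KYSE150 alone. Shares over all genes were not counted for calls in 1 line alone or in neither, so these counts describe the members only. A call in 1 line and none in the other does not show a difference, which is tested further on. Across the 78 members the changes in the lines correlated at r = 0.753 (Spearman's rho 0.707), against 0.593 (0.546) over 10951 genes.

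**Figure D3:**
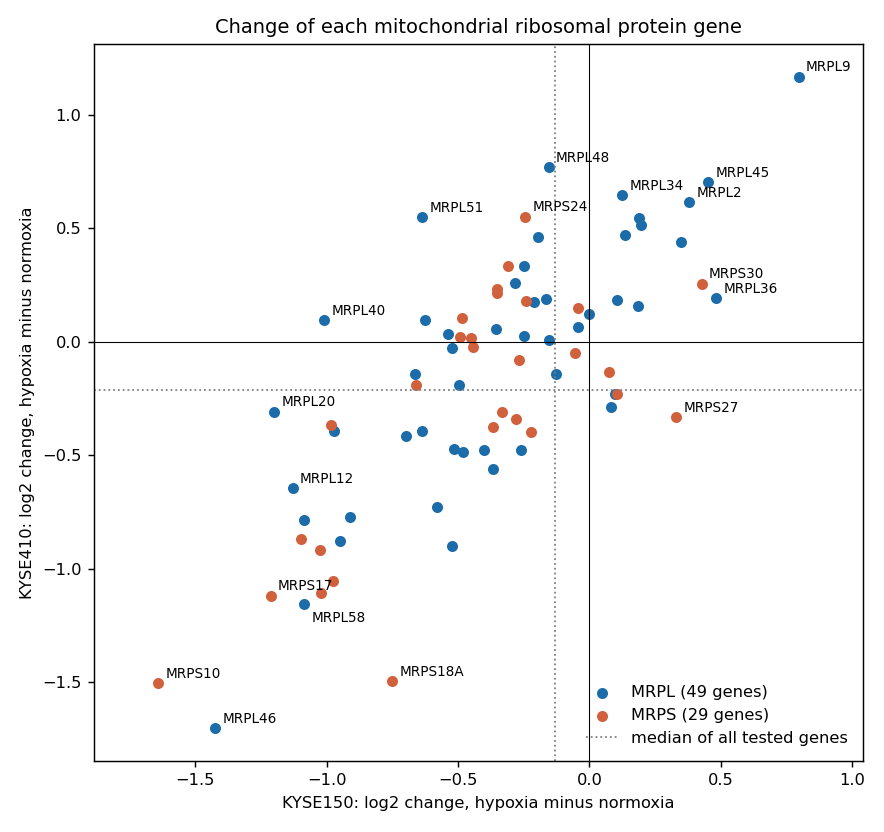
Log2 change in KYSE150 (x axis) against KYSE410 (y axis), hypoxia minus normoxia on the log2(FPKM + 1) scale, for each MRPL and MRPS gene; dotted lines mark the median of all tested genes. MRPS10, MRPL46, MRPS17 and MRPL58 are at the lower left, MRPL9 alone is at the upper right, and MRPL51, MRPL40 and MRPL48 lie above the main band.

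The test of the difference in response (KYSE410 change minus KYSE150 change, limma interaction over 12653 genes) called 31 members positive, 6 negative and 41 not at all. Over all genes 27.3% were positive and 36.0% negative. The members' median difference was 0.23, against -0.09 over all genes. Without KYSE150 normoxia replicate 2, negative calls came to 13, and with a common sum 17 were positive and 21 negative. With the length and GC trend removed 19 were negative.

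MRPL51, a mitochondria-specific large-subunit protein, had the largest positive difference. In KYSE410 it had 158, 161 and 162 FPKM in hypoxia, against 107, 112 and 109 FPKM in normoxia. In KYSE150 it had 67.5, 69.3 and 67.0 FPKM in hypoxia, against 93.2, 135 and 94.5 FPKM in normoxia. The groups were apart in both lines, in opposite directions. Its log2 changes were 0.55 ± 0.03 in KYSE410 and -0.63 ± 0.14 in KYSE150, a difference of 1.18 ± 0.16 (limma interaction, adjusted p = 4.293e-05). Its exons overlap NCAPD2 on the opposite strand over 31.3% of their bases, and since the strand setting is not given, reads of the pair cannot be told apart.

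MRPL40, also of the central protuberance, averaged 39.7 ± 1.55 FPKM in hypoxia and 37.1 ± 1.63 FPKM in normoxia in KYSE410 (SD, n = 3 each). In KYSE150 it averaged 22.9 ± 1.03 FPKM in hypoxia and 47.5 ± 8.98 FPKM in normoxia, and the difference in response was 1.10 ± 0.14. Its KYSE410 change of 0.10 did not pass. It turned to a called fall with a common sum (-0.14, limma adjusted p = 0.0206) and with the length and GC trend removed (-0.23, limma adjusted p = 0.0014).

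The next positive differences were 0.92 ± 0.13 for MRPL48, 0.89 ± 0.16 for MRPL20 and 0.79 ± 0.15 for MRPS24 (limma interaction, adjusted p at most 0.000683). MRPL20 fell by 0.31 in KYSE410 and by 1.20 in KYSE150, but with median-of-ratios scaling its KYSE410 change of -0.10 did not pass (limma adjusted p = 0.0661). MRPS24 averaged 165 ± 1.32 FPKM in hypoxia and 112 ± 2.59 FPKM in normoxia in KYSE410. In KYSE150, where it did not pass the test, it averaged 89.3 ± 2.06 FPKM in hypoxia and 107 ± 23.0 FPKM in normoxia.

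On the negative side, MRPS18A differed by -0.75 ± 0.13 and MRPS27 by -0.66 ± 0.07 (limma interaction, adjusted p = 0.0002773 and 4.582e-06). MRPS27 had 23.3, 24.2 and 25.1 FPKM in hypoxia, against 30.1, 30.8 and 31.3 FPKM in normoxia in KYSE410. In KYSE150 it had 37.6, 36.3 and 37.9 FPKM in hypoxia, against 29.8, 29.4 and 29.1 FPKM in normoxia. Its groups were apart in opposite directions, with little spread in any group, and here KYSE150 normoxia replicate 2 was not high. MRPL15, MRPL10 and MRPL17, conserved large-subunit proteins, differed by -0.38 ± 0.11, -0.37 ± 0.10 and -0.33 ± 0.12. MRPL10 and MRPL17 fell in KYSE410, with changes of -0.29 and -0.23, and did not pass in KYSE150, where their changes were 0.08 and 0.10. These calls moved with the processing. In KYSE410 the fall of MRPL10 lost its call with median-of-ratios scaling (-0.09, limma adjusted p = 0.1834) and with quantile normalization (-0.12, limma adjusted p = 0.0646), and that of MRPL17 with median-of-ratios scaling (-0.03, limma adjusted p = 0.6318). In KYSE150 both were called higher with quantile normalization and without normoxia replicate 2, MRPL10 also with median-of-ratios scaling and MRPL17 also with the length and GC trend removed. The difference of MRPL17 lost its call under 10 alternatives, while those of MRPL15 and MRPL10 kept theirs under each one tried.

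Large- and small-subunit genes had similar medians in KYSE150. Of 49 MRPL genes 24 fell and 4 rose, with a median log2 change of -0.29. Of 29 MRPS genes 18 fell and 2 rose, with a median of -0.35. All tested genes of this line had 38.8% lower and 23.5% higher. Without normoxia replicate 2, 25 MRPL genes fell and 13 rose, and 21 MRPS genes fell and 3 rose, with medians of -0.22 and -0.25. In KYSE410, where 51.9% of all tested genes fell and 31.2% rose, 21 MRPL genes fell and 17 rose with a median of 0.02. There 16 MRPS genes fell and 7 rose with a median of -0.19. The signs of these KYSE410 medians depend on the scaling: the MRPL median was -0.22 with a common sum and -0.24 with the length and GC trend removed, and the MRPS median was 0.02 with median-of-ratios scaling. The MRPL median stayed above the MRPS median, by 0.214 as deposited, by 0.118 once length and GC trends were taken out and by 0.138 without normoxia replicate 3 of KYSE410. The ratio of the summed MRPL to MRPS FPKM was 1.81 to 1.84 in hypoxia and 1.69 to 1.71 in normoxia in KYSE410. In KYSE150 it was 1.67 to 1.71 in hypoxia and 1.62 to 1.68 in normoxia. The ratio by symbol was apart in KYSE410 and overlapped in KYSE150. With MRPS18A and MRPS30 placed in the large subunit and MRPS36 left out, as in ribosome structures, it was apart in both lines. It was then 1.95 to 1.99 in hypoxia and 1.85 to 1.89 in normoxia in KYSE410, and 2.001 to 2.05 in hypoxia and 1.87 to 1.92 in normoxia in KYSE150.

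**Figure D4:**
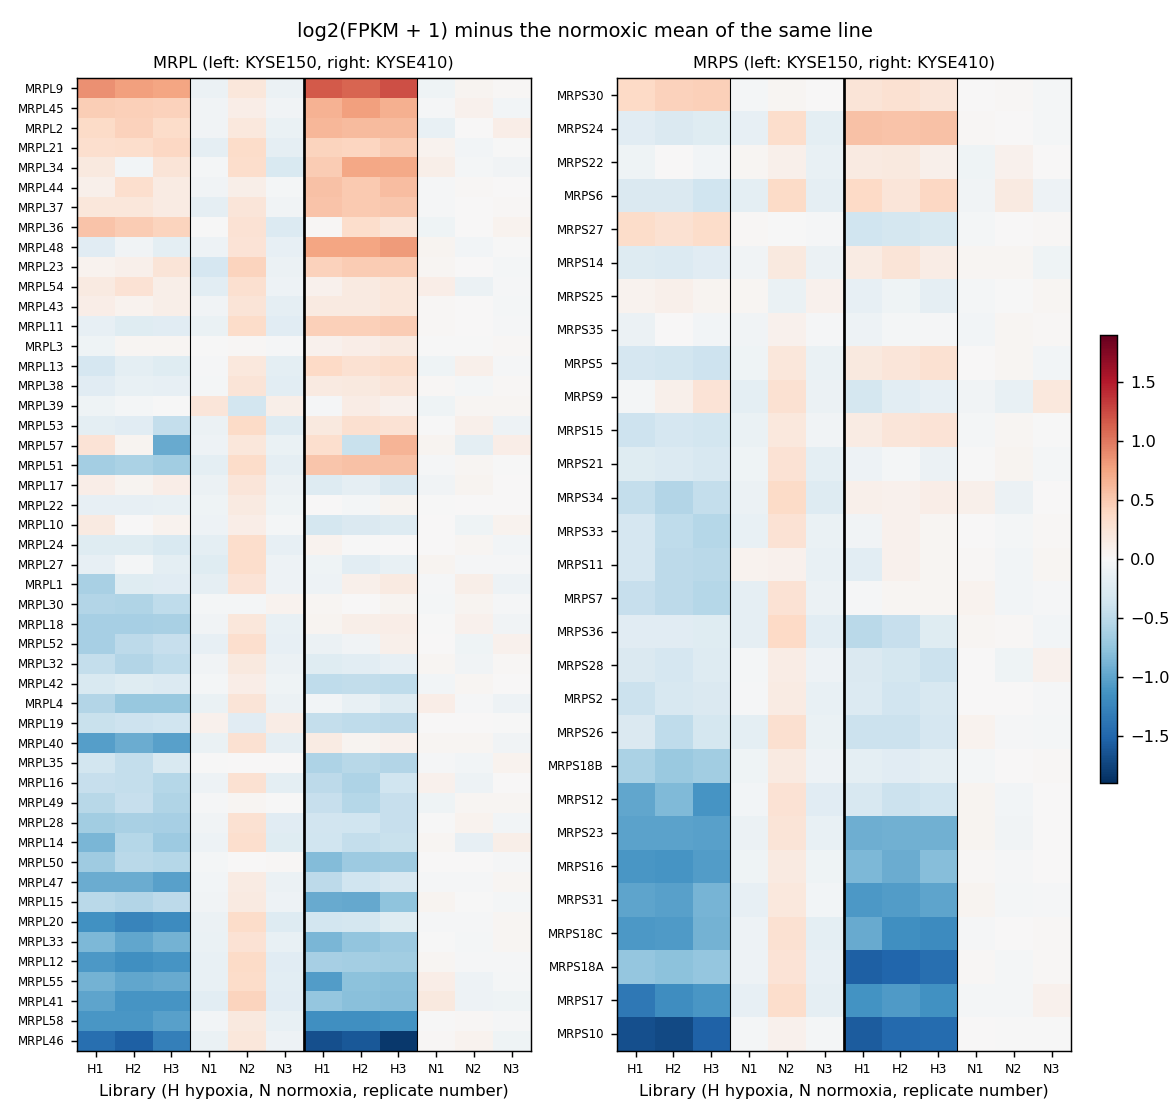
Log2(FPKM + 1) of every member in every library minus the normoxic mean of its line (colour scale, red above and blue below), with the MRPL genes left and the MRPS genes right; in each panel KYSE150 is left of KYSE410 and hypoxia left of normoxia. Normoxia replicate 2 of KYSE150 is red for most genes, and the lowest rows (MRPL46, MRPL58, MRPS10, MRPS17) are blue in all hypoxic libraries.

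By origin, proteins with a bacterial counterpart and those found only in mitochondria gave similar counts in KYSE150 as deposited. Of 30 conserved large-subunit genes 15 fell and 3 rose, and of 19 mitochondria-specific ones 9 fell and 1 rose. Of 16 conserved small-subunit genes 11 fell and none rose, and of 9 mitochondria-specific ones 5 fell and 1 rose. All tested genes of this line had 38.8% lower and 23.5% higher. Without normoxia replicate 2 the rises were 8, 5, 1 and 1 in the same 4 groups, and the falls 15, 10, 14 and 5. In KYSE410, 15 fell and 8 rose among the conserved large-subunit genes, and 6 fell and 9 rose among the mitochondria-specific ones. Their median log2 changes in KYSE410 were -0.14 and 0.16; with a common sum both were negative, at -0.38 and -0.08, and with median-of-ratios scaling both were positive, at 0.06 and 0.37. Of 16 conserved small-subunit genes 8 fell and 5 rose in KYSE410, and of 9 mitochondria-specific ones 5 fell and 1 rose. Over all tested genes of KYSE410 51.9% fell and 31.2% rose, and the shares of the conserved groups were near these.

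The central protuberance, which the mitochondrial ribosome builds mostly from its own proteins, held members that moved in opposite directions in KYSE410. Of its 8 listed genes (MRPL18, MRPL27, MRPL38, MRPL40, MRPL46, MRPL48, MRPL52 and MRPL58) 5 fell and none rose in KYSE150, and 3 fell and 2 rose in KYSE410. The shares over all tested genes were 38.8% lower and 23.5% higher in KYSE150, and 51.9% and 31.2% in KYSE410. MRPL46 changed by -1.42 and -1.70 in KYSE150 and KYSE410, while MRPL48 changed by -0.15 without a call and by 0.77.

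Genes for proteins around the exit tunnel, through which the nascent chain leaves, were mostly not called in KYSE150. Of 8 listed (MRPL17, MRPL22, MRPL23, MRPL24, MRPL39, MRPL44, MRPL45 and MRPL47) 1 rose, 1 fell and 6 did not pass. Without KYSE150 normoxia replicate 2, 4 rose and 2 fell. In KYSE410, 3 rose and 2 fell. The shares over all tested genes were 23.5% higher and 38.8% lower in KYSE150, and 31.2% and 51.9% in KYSE410. MRPL45 had 43.1, 42.4 and 42.3 FPKM in hypoxia, against 29.5, 33.9 and 29.4 FPKM in normoxia in KYSE150. In KYSE410 it had 31.2, 34.1 and 31.8 FPKM in hypoxia, against 19.1, 20.6 and 18.7 FPKM in normoxia. It was higher in every hypoxic library of both lines. MRPL44, which has a ribonuclease III-like fold, averaged 27.4 ± 0.999 FPKM in hypoxia and 18.4 ± 0.264 FPKM in normoxia in KYSE410, a rise of 0.55 ± 0.04, while its KYSE150 change of 0.19 ± 0.09 did not pass (limma adjusted p = 0.0975).

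The stalk and its base, which contact translation factors, moved unevenly. Of MRPL10, MRPL11 and MRPL12, only MRPL12 was called in KYSE150. In KYSE410 MRPL12 had 62.8, 62.5 and 61.8 FPKM in hypoxia, against 101, 96.8 and 96.9 FPKM in normoxia, a fall of 0.65 ± 0.03. MRPL10 also fell and MRPL11 rose, by 0.46 (limma, both past the threshold as deposited).

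The paralogs MRPS18A, MRPS18B and MRPS18C fell in both lines as deposited. They descend from the same bacterial protein and occupy different places: MRPS18C takes the bacterial position, MRPS18B lies elsewhere in the small subunit, and MRPS18A belongs to the large subunit in ribosome structures. MRPS18A (chromosome 6, 43671303 to 43687791, minus strand) had 23.2, 22.4 and 23.1 FPKM in hypoxia, against 36.7, 46.9 and 34.9 FPKM in normoxia in KYSE150. In KYSE410 it had 9.16, 9.49 and 9.98 FPKM in hypoxia, against 29.2, 28.0 and 29.1 FPKM in normoxia. Its log2 changes were -0.75 ± 0.11 in KYSE150 and -1.50 ± 0.04 in KYSE410, and the groups were apart in both.

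MRPS18C averaged 9.96 ± 0.787 FPKM in hypoxia and 21.4 ± 4.12 FPKM in normoxia in KYSE150, and 8.90 ± 0.870 FPKM in hypoxia and 20.3 ± 0.330 FPKM in normoxia in KYSE410. MRPS18B, among the 3 most abundant members of each line in normoxia, averaged 67.7 ± 2.71 FPKM in hypoxia and 108 ± 11.2 FPKM in normoxia in KYSE150. In KYSE410 it averaged 134 ± 1.82 FPKM in hypoxia and 153 ± 3.12 FPKM in normoxia, a fall of 0.19 ± 0.03 that turned to 0.02 with median-of-ratios scaling. MRPS18C shares 40.2% of its exon bases with ABRAXAS1 on the opposite strand, and MRPS18A shares 47.0% with RSPH9, which was near 0 in both lines.

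Other genes of known role behaved individually. MRPS12, a protein of the decoding centre, had 12.6, 14.0 and 11.4 FPKM in hypoxia, against 24.8, 31.5 and 22.2 FPKM in normoxia in KYSE150, a fall of 0.98 ± 0.13. In KYSE410 it fell by 0.37 ± 0.04, and the difference in response was 0.61 ± 0.15 (limma interaction, adjusted p = 0.0038). MRPS36, now assigned to the oxoglutarate dehydrogenase complex rather than the ribosome, averaged 12.9 ± 0.123 FPKM in hypoxia and 15.5 ± 3.91 FPKM in normoxia in KYSE150, without a call. In KYSE410 it averaged 17.2 ± 1.93 FPKM in hypoxia and 22.8 ± 0.795 FPKM in normoxia, a fall of 0.40 ± 0.07. MRPS30 had 60.0, 62.2 and 63.2 FPKM in hypoxia, against 44.4, 46.8 and 45.9 FPKM in normoxia in KYSE150. In KYSE410 it had 30.0, 31.0 and 29.8 FPKM in hypoxia, against 25.4, 25.7 and 24.5 FPKM in normoxia, and all hypoxic libraries of both lines were higher.

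Levels of the members spanned a wide range. In normoxia the means ran between 4.59 FPKM (MRPL42) and 108 FPKM (MRPS18B) in KYSE150, and between 5.82 FPKM (MRPS11) and 175 FPKM (MRPL33) in KYSE410. In KYSE150 MRPS18B, MRPL51 and MRPS24, at 108, 108 and 107 FPKM, did not differ beyond their spread of 11.2 to 23.8 FPKM. In KYSE410 MRPL33, a small conserved large-subunit protein, stood above MRPS18B, and both above MRPS24. MRPL33 averaged 102 ± 6.44 FPKM in hypoxia and 175 ± 4.61 FPKM in normoxia in KYSE410, and 49.0 ± 2.38 FPKM in hypoxia and 93.7 ± 16.2 FPKM in normoxia in KYSE150. It fell in both lines, by 0.77 ± 0.05 in KYSE410 and by 0.91 ± 0.12 in KYSE150, and it shares 21.1% of its exon bases with BABAM2 on the same strand.

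MRPL46 and MRPS11 are neighbours on chromosome 15 with start sites 320 bases apart on opposite strands, and they did not move alike. MRPS11, a conserved small-subunit protein, averaged 6.29 ± 0.556 FPKM in hypoxia and 8.90 ± 0.830 FPKM in normoxia in KYSE150, a fall of 0.44 ± 0.10. In KYSE410 it averaged 5.74 ± 0.683 FPKM in hypoxia and 5.82 ± 0.237 FPKM in normoxia, without a call (limma adjusted p = 0.8024). MRPS11 was named for its place beside MRPL46. In all, 26 of the 69 members with a promoter entry had a partner starting on the opposite strand within 1000 bases.

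The promoter letters were set beside the changes as a description, and no test was made. Of the 29 members with the ETS letters, 20 fell and none rose in KYSE150, with a median log2 change of -0.54. Of the 40 without them 19 fell and 5 rose, with a median of -0.29. The shares over all tested genes in this line were 38.8% lower and 23.5% higher. Without normoxia replicate 2, 21 fell and 2 rose of those with the letters, and 22 fell and 10 rose of those without. In KYSE410, 15 fell and 8 rose of those with the letters and 17 fell and 12 rose of those without. The shares of those with the letters were near those of all tested genes there, 51.9% lower and 31.2% higher. MRPL9, the member with the largest rise in both lines, had no match to the ETS, NRF1 or hypoxia response letters in its 300 bases. It had 1 match to the YY1 letters, at position -115 from the start site. Of the 21 members with the YY1 core letters 13 fell and 5 rose in KYSE150, and 11 fell and 6 rose in KYSE410. Of the 48 without them 26 fell and none rose in KYSE150, and 21 fell and 14 rose in KYSE410. This split of the KYSE150 rises did not hold otherwise: with the longer YY1 form members both with and without a match rose, and without normoxia replicate 2, 5 with the short letters and 7 without them rose.

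Genes that work with the mitochondrial ribosome were read from lists of its other proteins, its assembly factors, translation factors and regulators of mitochondrial gene expression. Of 5 further ribosomal proteins with other symbols, DAP3, a GTP-binding protein of the small subunit, fell in both lines, by 0.46 ± 0.13 in KYSE150 and by 0.66 ± 0.05 in KYSE410. AURKAIP1 fell by 0.51 ± 0.15 in KYSE150. In KYSE410 CHCHD1 and GADD45GIP1 rose, by 0.91 ± 0.08 and 0.78 ± 0.05, and PTCD3 fell by 0.38 ± 0.05 (limma, all past the threshold).

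Most assembly factors fell. Of 26, 16 fell and 3 rose in KYSE150 with a median log2 change of -0.48, and 22 fell and 3 rose in KYSE410 with a median of -0.76. That is 61.5% lower in KYSE150 and 84.6% in KYSE410, where 38.8% and 51.9% of all tested genes fell. MRM2, a methyltransferase of the large ribosomal RNA, averaged 7.89 ± 1.11 FPKM in hypoxia and 28.8 ± 4.07 FPKM in normoxia in KYSE150. In KYSE410 MRM2 averaged 5.31 ± 0.532 FPKM in hypoxia and 44.9 ± 0.827 FPKM in normoxia, a fall of 2.87 ± 0.06. DDX28, an RNA helicase of large-subunit assembly, changed by -1.88 ± 0.13 and -1.99 ± 0.08 in KYSE150 and KYSE410, and GTPBP10, an assembly GTPase, by -1.45 ± 0.09 and -2.05 ± 0.05. RPUSD4, a pseudouridine synthase, rose in both lines, by 1.31 ± 0.07 and 0.68 ± 0.05. NOA1, a GTPase, rose by 1.05 ± 0.09 in KYSE150, and YBEY, an endoribonuclease, by 0.81 ± 0.07 in KYSE410.

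Of 17 tested translation factors and activators, 9 fell and 2 rose in KYSE150, and 10 fell and 4 rose in KYSE410. Their KYSE410 shares, 58.8% lower and 23.5% higher, were near the 51.9% and 31.2% of all tested genes, and in KYSE150 they were 52.9% and 11.8%, against 38.8% and 23.5%. TACO1, an activator of cytochrome c oxidase subunit translation, changed by -1.53 ± 0.12 and -1.13 ± 0.05 in KYSE150 and KYSE410. GFM1, the elongation factor for translocation, averaged 9.59 ± 1.58 FPKM in hypoxia and 23.8 ± 1.49 FPKM in normoxia in KYSE150, a fall of 1.24 ± 0.12, and fell by 0.75 ± 0.08 in KYSE410. C12orf65, a rescue factor related to MRPL58, changed by -0.96 ± 0.10 and -2.17 ± 0.08, a fall in both. OXA1L, the insertase that receives nascent chains, and LRPPRC, a binder of mitochondrial mRNAs, rose in both lines. OXA1L rose by 0.38 ± 0.08 and 0.61 ± 0.04, and LRPPRC by 0.34 ± 0.09 and 0.38 ± 0.04.

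Of 12 tested regulators, 7 fell and 2 rose in KYSE150, and 10 fell and 2 rose in KYSE410. The shares over all tested genes were 38.8% lower and 23.5% higher in KYSE150, and 51.9% and 31.2% in KYSE410. Without KYSE150 normoxia replicate 2, 4 rose in KYSE150. TFB2M, a mitochondrial transcription factor, and TWNK, the mitochondrial DNA helicase, fell in both lines. TFB2M changed by -1.73 ± 0.07 in KYSE150 and -1.12 ± 0.05 in KYSE410, and TWNK by -1.78 ± 0.09 and -2.41 ± 0.06. PPRC1, a coactivator of nuclear respiratory genes, changed by -0.69 ± 0.10 in KYSE150 and -1.83 ± 0.07 in KYSE410. POLRMT, the mitochondrial RNA polymerase, rose by 0.25 ± 0.08 in KYSE150 and fell by 1.10 ± 0.05 in KYSE410. GABPA, an ETS-family subunit of GABP, rose by 0.42 ± 0.05 in KYSE410 and changed by 0.19 without a call in KYSE150, while YY1, a zinc finger factor, rose by 0.40 ± 0.09 and 0.18 ± 0.04 in KYSE150 and KYSE410 (limma, adjusted p at most 0.0254 for each gene said to rise or fall).

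The mRNAs that these ribosomes translate were lower as well. Of 13 mitochondrially encoded mRNAs 11 fell in KYSE150 and 13 fell in KYSE410, with median log2 changes of -1.14 and -1.12. The shares falling over all tested genes were 38.8% and 51.9%. Cytosolic ribosomal protein genes went the other way in their medians, 0.30 in KYSE150 and 0.97 in KYSE410. Of 77 tested, 21 rose and 1 fell in KYSE150 as deposited, where a near share of all tested genes rose (23.5%) and 38.8% fell. Without KYSE150 normoxia replicate 2, 74 rose and 1 fell, where 3661 of 12678 tested genes rose and 5756 fell. In KYSE410, where 31.2% of all tested genes rose, all 77 did. Across the alternatives, between 4 and 74 of them were called higher in KYSE150, and their median stayed positive. With quantile normalization their KYSE410 median was 0.32, with 63 higher and 2 lower. All of these comparisons use the same libraries as the members and add no independent samples.

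**Figure D5:**
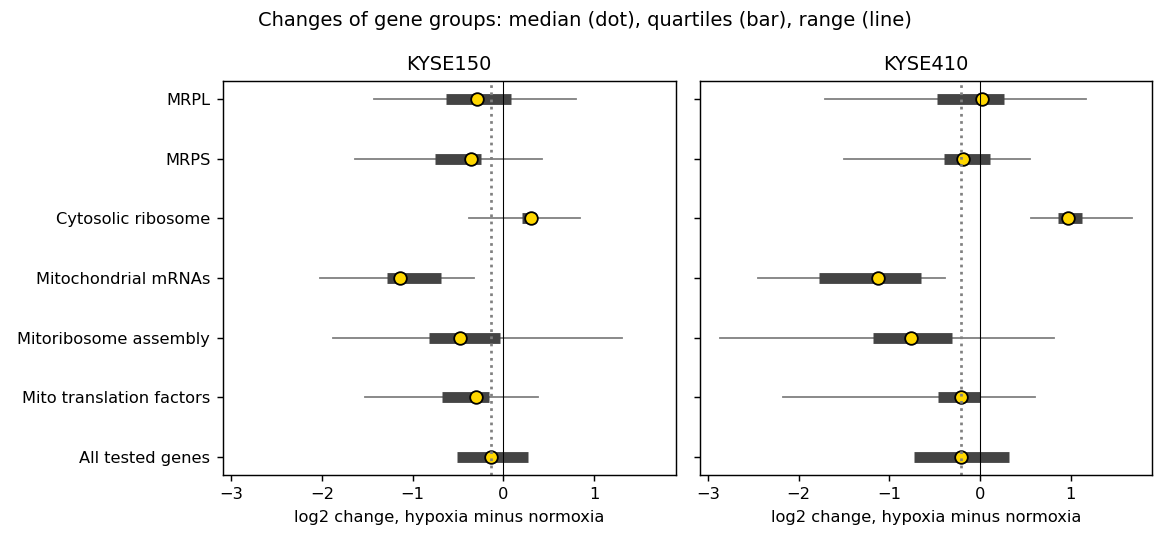
Log2 change, hypoxia minus normoxia on the log2(FPKM + 1) scale, of gene groups in KYSE150 and KYSE410: median (dot), quartiles (bar) and range (line, not drawn for all tested genes), with the all-gene median dotted. MRPL and MRPS medians lie between the mitochondrial mRNAs (-1.14 and -1.12) and the cytosolic ribosomal proteins (0.30 and 0.97) in both lines.

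For several members the deposited values may include reads of overlapping genes, since strand and counting were not given. MRPL9 shares 18.4% of its exon bases with OAZ3 on the opposite strand, which averaged 0.743 FPKM in KYSE150 and 1.09 FPKM in KYSE410, far below MRPL9. MRPL2 shares 14.7% with KLC4 on the opposite strand, at 10.8 FPKM in KYSE150 and 4.21 FPKM in KYSE410. MRPS12 shares 16.3% with SARS2, MRPL34 13.2% with ABHD8 and MRPS16 14.1% with DNAJC9-AS1, each on the opposite strand. MRPL12 shares 68.2%, MRPS17 21.8% and MRPL46 11.3% with protein-coding loci on the same strand that carry clone names and are not in the tables. MRPS24 shares 23.2% with the readthrough URGCP-MRPS24, which was below 1 FPKM. Some partners were higher than the member. MRPS17 also shares 5.2% with NIPSNAP2 on the same strand, at 46.5 FPKM in KYSE150 and 57.5 FPKM in KYSE410. MRPL49 shares 9.2% with FAU on the opposite strand, at 314 FPKM in KYSE150 and 312 FPKM in KYSE410. MRPL45 also has a pseudogene copy, MRPL45P2, whose reads the counting could have shared with it. The part of these genes in the values was not tested.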

How the data were processed

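The authors deposited a table of FPKM values per line, and each fit uses them as deposited. Per the submitters' processing notes the tools were HISAT2 2.2.1, fastp 0.22.0 and bcl2fastq 2.20 and the build was hg38; per the labels' protocols extraction was with TRIzol and mRNA was selected on beads. The sources used here do not give the quantifier, annotation or strand setting. The unit was read from the values. They do not move in steps of whole reads (611 values above 0 are under 0.0001 FPKM), so depth is unknown and no count test was run.

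Genes averaging 1 FPKM or more in a line entered a trended limma fit of log2(FPKM + 1) for that line (limma 3.58.1, R 4.3.3), and an interaction fit of all 12 libraries gave the difference in response. These changes understate those of low genes. Calls are at a Benjamini-Hochberg adjusted p under 0.05 over all genes tested, and the limma fit was tested on simulated data. Tables were deposited per line, so levels across lines assume comparable FPKM. Groups came from the labels.

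The members, lists and role genes were chosen with earlier results of these data known. Named genes are 10 of known role, the 6 largest called rises and falls per line, the 5 largest called differences in response each way, the 3 highest in normoxia per line, and up to 2 called rises and falls per other list and line. Positions, overlaps and lengths came from GENCODE 29, all 78 members matching; promoters came from RefSeq. Python 3.11.15, pandas 2.3.3 and matplotlib 3.10.9 were used, and mgcv 1.9.3 for the length and GC trend. Alternatives covered scaling, pseudocount, filter, the length and GC trend, the replicate number as a block, and leaving out each library.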

Additional observations from a re-analysis of the deposited data

Results flagged for a closer look

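The response to hypoxia differed between the lines for 18 of the named members, by the limma interaction test on the log2 scale (KYSE410 change minus KYSE150 change, adjusted p under 0.05 over all genes). Some of them were named for being among the 5 largest called differences each way, so this count was partly set by the naming. Of all 78 members 47.4% were called, against 63.3% of all tested genes. The difference was positive, so that KYSE410 lay above KYSE150, for MRPL51 (1.18), MRPL40 (1.10), MRPL48 (0.92), MRPL20 (0.89), MRPS24 (0.79), MRPS12 (0.61), MRPL34 (0.52), MRPL12 (0.48), MRPS18B (0.47), MRPL9 (0.37), MRPL44 (0.36) and MRPL45 (0.25). It was negative for MRPS18A (-0.75), MRPS27 (-0.66), MRPL15 (-0.38), MRPL10 (-0.37), MRPL17 (-0.33) and MRPS30 (-0.17). MRPL9 and MRPL45 rose in both lines and MRPL12, MRPL20 and MRPS12 fell in both as deposited, so these differences concern size. The call of a difference was lost under 10 alternatives for MRPL17 and MRPS30, 9 for MRPL34, 7 for MRPL45, 2 for MRPL9 and MRPL44, and 1 for MRPL12 and MRPS18B, and under none of those run for the other 10. The lines were deposited as separate tables and the KYSE410 groups carry different sample-sheet numbers, which cannot be told apart from oxygen there.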

How the results depend on the processing

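The counts of members lower in hypoxia stayed within 1.5 times under every alternative tried, and the counts of higher members did not. In KYSE150 the number higher was 11 with median-of-ratios scaling, 14 with quantile normalization and 11 with the length and GC trend removed, against 6, and between 6 and 16 with 1 library left out. In KYSE410 it was 38 with median-of-ratios scaling, 12 with a common sum and 15 with the length and GC trend removed, against 24. For the difference in response, 17 were positive and 21 negative with a common sum, and 19 negative with the length and GC trend removed, and between 4 and 13 were negative with 1 library left out.

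The KYSE150 MRPL median was -0.12 with median-of-ratios scaling. The KYSE410 MRPL median was 0.23 with median-of-ratios scaling, -0.22 with a common sum and -0.24 with the length and GC trend removed, and the MRPS median 0.018, -0.43 and -0.35 under the same alternatives and between -0.21 and -0.13 with 1 library left out. The MRPL minus MRPS difference in KYSE410 was 0.12 with the length and GC trend removed and between 0.14 and 0.23 with 1 library left out.

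Placing MRPS18A and MRPS30 in the large subunit and leaving MRPS36 out moved no median by more than 1 SD of the libraries, but set the KYSE150 ratio of summed levels apart between hypoxia and normoxia. Some sign changes passed the threshold the other way: MRPL36 and MRPL40 in KYSE410 with the length and GC trend removed, MRPL40 also with a common sum, and the MRPL33 difference with the length and GC trend removed and with quantile normalization. With a common sum the difference in response was -0.006 for MRPL2, -0.12 for MRPL33, -0.11 for MRPS10, -0.019 for MRPS16 and -0.14 for MRPS17, and the KYSE410 change was -0.037 for MRPL36 and -0.14 for MRPL40. With the length and GC trend removed the difference was -0.021 for MRPL2, -0.37 for MRPL33, -0.037 for MRPL45, -0.07 for MRPS10 and -0.15 for MRPS17, and the KYSE410 change was -0.32 for MRPL36 and -0.23 for MRPL40. With median-of-ratios scaling MRPL48 was 0.012 in KYSE150, the MRPL58 difference 0.004 and MRPS18B 0.018 in KYSE410. With quantile normalization the difference was -0.31 for MRPL33 and 0.061 for MRPS18C. With 1 library left out, the MRPL33 difference ranged between -0.00 and 0.21, MRPS17 between -0.074 and 0.18, MRPS18C between -0.23 and 0.01, and the KYSE150 change of MRPL34 between -0.019 and 0.29. The causes were not tested.

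Same-numbered libraries did not deviate together (r between -0.069 and 0.084), and differently numbered ones had r between -0.097 and 0.11. With 3 libraries per group this cannot show whether the numbers pair the samples, and the main fits left them unpaired. With the replicate number as a block 41 members were lower and 6 higher in KYSE150, 38 and 24 in KYSE410, and 31 positive and 5 negative for the difference in response.

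FPKM without counts gives no depth, so the precision of low members rests on 3 libraries per group.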
